A study of Mus musculus with 24 samples.

Results

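Hepatic gene expression was compared between untreated PPARα-null mice and untreated wild-type mice, to ask how the liver transcripts of the 2 genotypes differed with neither a drug nor heat. The comparison used 6 of the 24 arrays of the study, chosen by their labels: 3 livers of wild-type control mice (mice 1, 2 and 3) and 3 livers of PPARα-null control mice (mice 13, 14 and 15). All mice were males of 9 to 12 weeks on a mixed SV129/C57BL/6 background, ate NIH-07 chow as the control diet for 1 week and were kept at room temperature, with 1 whole-liver RNA sample and 1 Affymetrix U74Av2 array per mouse. The null mice lack a working PPARα gene in every tissue and were bred as a colony, and the sources used here do not say how closely the wild-type mice were related to them. The other 18 arrays came from both strains given WY (a synthetic PPARα agonist, 500 ppm in the diet), heat shock (HS, 40 minutes) or both (WY+HS), with 3 mice per group. All 12422 probe sets other than the AFFX controls were tested.

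PPARα is a nuclear receptor that binds fatty acids and pairs with the retinoid X receptor on DNA. In hepatocytes it is known for switching on the enzymes that carry fatty acids into mitochondria and peroxisomes and burn them there, and it is the receptor through which WY and other peroxisome proliferators act in rodents. A gene may respond to an agonist of the receptor and still be transcribed at an ordinary level without it, so a low level in untreated null livers and a response to WY are different properties.

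Intensities are in arbitrary units, quantile normalized over the 24 arrays and held at a floor of 15.7, the size of their negative 10th percentile; a value at the floor gives only an upper limit. A log2 difference is always null minus wild-type, so a negative value is a lower level in null livers. A probe set was called when the limma adjusted p was under 0.05. Before normalization the median intensity of the 6 arrays ran from 18.7 to 25.3. After it the log2 values of 2 livers correlated at 0.964 to 0.976 within a genotype and at 0.958 to 0.966 between genotypes. The 9 hepatocyte markers measured, such as albumin, summed to between 34490 and 36141 in wild-type and between 34762 and 36727 in null livers. Wild-type mouse 1 stood apart in skeletal muscle transcripts: the 17 muscle markers summed to 1744 there and to between 461 and 610 in the other 5 livers, and *Acta1* (skeletal actin) read 662 there and at or within 0.1 of the floor in the others. Transcripts per cell and the share of a cell type in a whole-liver sample cannot be told apart.

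*Ppara* itself read 315, 298 and 357 in the wild-type livers and 185, 174 and 152 in the null livers. Every null liver lay below every wild-type liver, but the difference did not pass the test over all probe sets (log2 difference -0.92, SE 0.22, limma adjusted p = 0.0594). It passed when only probe sets with a mean above the 30th percentile were tested (limma adjusted p = 0.0359). In the treated mice the same probe set was called lower in null livers after HS (log2 difference -0.73, limma adjusted p = 0.0316), after WY (-1.10, limma adjusted p = 0.00224) and after WY+HS (-0.75, limma adjusted p = 0.0329). The sources used here do not place this probe set relative to the disrupted part of the gene, so a remaining signal in null livers does not show a working transcript.

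In untreated livers 105 of 12422 probe sets (0.845%) were called, 65 lower (0.523%) and 40 higher (0.322%) in the null mice. In all 105 the 3 null livers lay beyond the 3 wild-type livers, as they did for 13.2% of all probe sets. The lower side held the larger differences: its median size was 1.15 on the log2 scale and 39 of 65 probe sets were at least 2-fold apart, against a median of 0.62 and 11 of 40 on the higher side. The split also depended on how the arrays were scaled, since 12 of 65 calls were higher in null livers when the arrays were only brought to the same median and 2 of 17 without scaling. Of the called probe sets 87 matched exactly 1 gene, 6 matched several and 12 had no gene symbol. They stood for 85 genes, 56 lower and 29 higher. Where each gene is counted once, through its brightest probe set, 76 of 8251 genes were called (0.921%), 51 lower (0.618%) and 25 higher (0.303%). At an unadjusted p under 0.05 there were 603 lower and 646 higher probe sets, so the excess of lower ones lies among the strongest differences.

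**Figure D1:**
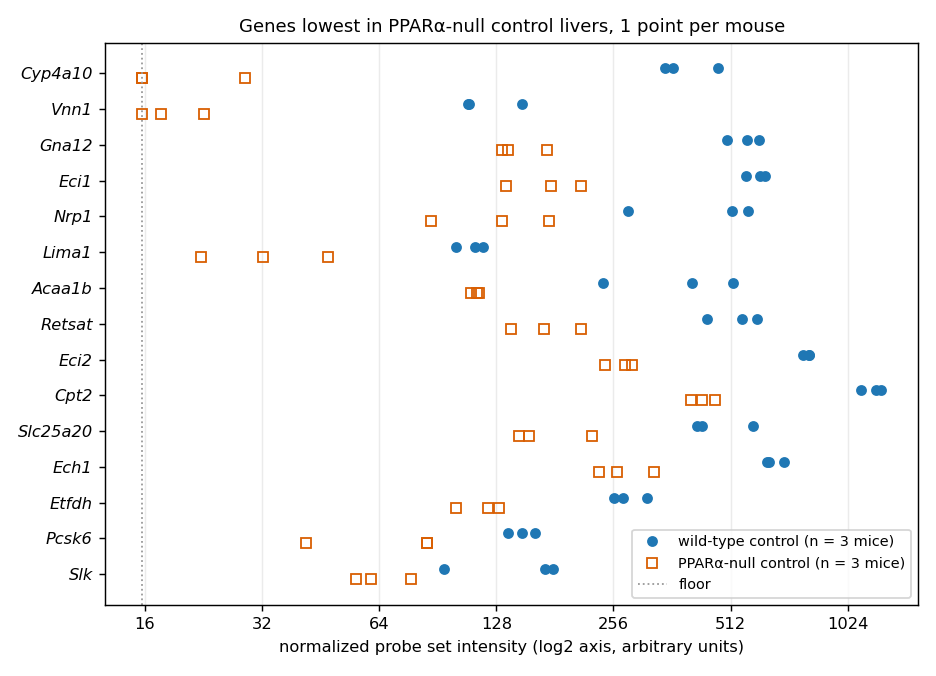
Normalized intensity of the 15 probe sets of largest fall in PPARα-null control livers, by the naming rule, on a log2 axis, with 1 filled circle per wild-type mouse and 1 open square per null mouse (3 mice each); the dotted line is the floor of 15.7. No null mouse reaches a wild-type mouse in any of the 15, and *Cyp4a10* and *Vnn1* lie at or near the floor in null livers.

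The clearest group among the lower genes was mitochondrial fatty acid oxidation. Of 19 genes measured on this list 8 were called lower in null livers and none higher, against 0.618% and 0.303% of all genes. The 18 members above the floor on at least 1 of the 6 arrays had a median log2 difference of -0.61, against 0.02 for all 6254 such genes. The called genes cover several steps of the pathway, from entry into the mitochondrion to the passing on of electrons.

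Transcripts for entry into the mitochondrion were lower at 2 neighbouring steps. *Slc25a20*, the carrier that moves acylcarnitines across the inner membrane, read 419, 431 and 583 in wild-type livers against 156, 225 and 146 in null livers (log2 difference -1.45, SE 0.17, limma adjusted p = 0.000299). *Cpt2*, which turns acylcarnitine back into acyl-CoA on the matrix side, read 1212, 1109 and 1251 against 405, 431 and 467 (log2 difference -1.46, SE 0.11, limma adjusted p = 2.44e-06). The null level was 2.74-fold lower, and the groups lay far apart relative to the spread within them. *Cpt1a*, the liver form of the transferase at the outer membrane and the textbook control point of the pathway, read 1407, 1411 and 1864 against 1202, 1254 and 1589 with overlapping groups (log2 difference -0.21, SE 0.21, limma adjusted p = 1).

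Within the spiral itself transcripts of an isomerase and of 2 dehydrogenases were lower. *Eci1*, which repositions the double bond of unsaturated fatty acids, read 610.3, 559.6 and 627 in wild-type livers against 177, 136 and 212 in null livers (log2 difference -1.80, SE 0.15, limma adjusted p = 5.73e-06), a 3.48-fold lower level. *Acadl*, the long-chain acyl-CoA dehydrogenase, read 161, 159 and 237 against 72.0, 82.5 and 114 (log2 difference -1.06, SE 0.22, limma adjusted p = 0.0286). *Acads*, its short-chain counterpart, read 437, 462 and 420.0 against 259, 268 and 268 (log2 difference -0.73, SE 0.10, limma adjusted p = 0.00103). In each of these the 2 genotypes did not overlap, although the highest null mouse for *Acadl*, at 114, came within reach of the lowest wild-type mouse at 159, and the *Acadl* call was lost without wild-type mouse 2 or 3 or without null mouse 13 or 14 (highest limma adjusted p = 0.161). *Acads* was also measured by a fainter probe set, at 119, 160 and 107 in wild-type livers against 112, 132 and 109 in null livers. There the groups overlapped, with a log2 difference of -0.11 and no call. The *Acads* call was lost with 1 value per gene (limma adjusted p = 0.11). The medium-chain dehydrogenase *Acadm* read 1288, 1470.0 and 1369 against 1235, 1391 and 1465, with overlapping groups and a log2 difference of -0.01 (limma adjusted p = 1). *Acadvl*, for very long chains, stayed at the floor on all 6 arrays, so its level could not be compared.

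The electrons taken from fatty acids pass through the electron transfer flavoprotein to *Etfdh*, its dehydrogenase in the inner membrane. *Etfdh* read 256, 271 and 312 in wild-type livers against 129.8, 122 and 101 in null livers (log2 difference -1.25, SE 0.15, limma adjusted p = 0.000381). The beta subunit of the flavoprotein, *Etfb*, and the beta subunit of the trifunctional protein, *Hadhb*, completed the 8 called genes, and both lie outside the naming rule. *Etfb* read 1292, 1531 and 1465 against 959, 887 and 902 (log2 difference -0.64, SE 0.07, limma adjusted p = 0.000167). *Hadhb*, which carries the thiolase step for long chains, read 753, 739 and 828 against 497, 537 and 484 (log2 difference -0.61, SE 0.08, limma adjusted p = 0.000922). The partner subunit *Etfa* read 514, 496 and 509 against 544, 635 and 541, with a log2 difference of 0.17 (limma adjusted p = 0.676), so the 2 subunits of the flavoprotein did not lie on the same side of 0.

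Peroxisomal fatty acid oxidation and peroxisome genes gave 6 called lower of 25 measured and none higher, against 0.618% and 0.303% of all genes. The members above the floor had a median log2 difference of -0.18, and most genes of peroxisome assembly on the list were not called. *Eci2*, the peroxisomal counterpart of *Eci1*, read 816, 816 and 787 in wild-type livers against 244, 275 and 285 in null livers (log2 difference -1.59, SE 0.13, limma adjusted p = 4.2e-06). *Ech1*, a dienoyl-CoA isomerase, read 703, 637 and 642 against 236, 326 and 261 (log2 difference -1.28, SE 0.16, limma adjusted p = 0.000533). Both were at least 2-fold lower in null livers, and the wild-type mice differed little among themselves.

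Transcripts of 2 core spiral enzymes of the peroxisome were lower by a smaller step. *Hsd17b4*, the bifunctional enzyme for branched and very long chains, read 942, 1124 and 1114 in wild-type livers against 602, 660.4 and 593 in null livers (log2 difference -0.77, SE 0.09, limma adjusted p = 0.000289). The brightest probe set of the peroxisomal thiolase *Acaa1b* read 2189.6, 2281 and 2653 against 1377, 1407 and 1457 (log2 difference -0.74, SE 0.09, limma adjusted p = 0.00042). A dimmer probe set of the same gene read 240.5, 407 and 518 against 109.9, 114 and 116 (log2 difference -1.71, SE 0.36, limma adjusted p = 0.0316). The 2 probe sets share their direction but not its size, the call of the dimmer one was lost without wild-type mouse 2 or 3 or without null mouse 13, 14 or 15 (highest limma adjusted p = 0.169), and *Acaa1a* and *Acaa1b* are close copies whose signals the array may not fully separate. *Acaa1a* read 1273, 1377 and 1505 against 1165, 1228 and 1401, with a log2 difference of -0.13 (limma adjusted p = 0.964).

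*Abcd3*, a half-transporter that brings fatty acids into the peroxisome, read 684, 707 and 602 in wild-type livers against 446, 509 and 471 in null livers (log2 difference -0.48, SE 0.08, limma adjusted p = 0.00974). *Acot8*, a peroxisomal thioesterase that releases fatty acids from CoA, read 136, 124 and 145 against 79.8, 53.9 and 69.8 (log2 difference -1.01, SE 0.23, limma adjusted p = 0.045). The *Abcd3* call was lost without wild-type mouse 2 or without null mouse 13 (highest limma adjusted p = 0.0582), and the *Acot8* call whichever mouse was left out (highest limma adjusted p = 0.17). *Ehhadh*, the other bifunctional enzyme and a strongly inducible gene, was not lower in null livers: its levels were 74.9, 75.3 and 81.9 in wild-type livers against 94.6, 93.3 and 73.1 in null livers, with a log2 difference of 0.16 (limma adjusted p = 1). The same gene rose with WY in wild-type livers (log2 change 5.00, limma adjusted p = 1.23e-11), a comparison that shares the wild-type control mice. *Ehhadh*, *Cpt1a*, *Acadm*, *Acadvl*, *Etfa* and *Acaa1a* lie outside the naming rule and were chosen after their values were seen.

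The largest fall of all was in a transcript of omega-oxidation. *Cyp4a10*, a cytochrome P450 that hydroxylates the far end of fatty acids and a classical PPARα target, read 348, 364 and 474 in wild-type livers against 28.9, 15.7 and 15.7 in null livers (log2 difference -4.34, SE 0.66, limma adjusted p = 0.00301). Null mice 14 and 15 lay at the floor, so the 20.3-fold difference is limited by it. Probe sets of the Cyp4a family share sequence, and this one may read close copies of the gene. On the omega-oxidation list *Cyp4a10* was the 1 gene called of 12 measured, where 0.618% of all genes were called lower. The median log2 difference of the list was -0.47. *Cyp4a14*, outside the naming rule, read 239, 387 and 443 against 52.1, 33.1 and 41.4 without overlap, and just missed the threshold (log2 difference -3.05, SE 0.70, limma adjusted p = 0.052).

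A probe set with no single gene name had the second largest fall, with a log2 difference of -3.81. Among the falls with 1 gene name and a wild-type mean of at least 100, the next was *Vnn1*, a pantetheinase that takes part in the turnover of coenzyme A. It read 109, 108 and 149 in wild-type livers against 15.7, 17.6 and 22.7 in null livers (log2 difference -2.71, SE 0.36, limma adjusted p = 0.000806), with all null mice near the floor. *Retsat*, which saturates retinol, read 445, 601 and 548 against 169, 211 and 139 (log2 difference -1.63, SE 0.17, limma adjusted p = 8.99e-05). *Hsdl2*, a peroxisomal dehydrogenase-like protein singled out after its values were seen, read 63.5, 79.0 and 55.4 in wild-type livers and at the floor in all null livers, which makes its level at least 4.14-fold lower (limma adjusted p = 2.44e-06). It was 1 of 7 called probe sets with all 3 null mice at the floor, and a group held at the floor does not vary, so such p-values can be too small.

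Fatty acid uptake, binding, activation and storage held 1 gene lower and 1 higher of 32 measured, with a median log2 difference of -0.39 over the 26 above the floor. Of all genes 0.618% were called lower and 0.303% higher. *Plin2*, the main coat protein of lipid droplets in hepatocytes, read 1915, 2088 and 2247 in wild-type livers against 1093, 768 and 1221 in null livers (log2 difference -1.04, SE 0.16, limma adjusted p = 0.00323). *Acsl4*, an acyl-CoA synthetase that prefers arachidonic acid, went the other way, at 91.8, 75.0 and 126 against 249, 188 and 187 (log2 difference 1.11, SE 0.25, limma adjusted p = 0.0444). The *Acsl4* groups did not overlap, but the call was lost without wild-type mouse 1 or 2 or without null mouse 13, 14 or 15 (highest limma adjusted p = 0.176). *Fabp1*, the abundant liver fatty acid binding protein, read 4439.5, 4694 and 4814 against 3786, 3755 and 3949, with a log2 difference of -0.28 (limma adjusted p = 0.38). *Cd36*, *Fabp3*, *Cidec* and *Vldlr*, which are known to respond to PPARα agonists or to lipid load, were at the floor on all 6 arrays. These 5 genes were chosen after their values were seen.

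PPARα and its partner bind a direct repeat of the half-site AGGTCA separated by 1 base (DR1). Promoter windows from 250 bases before to 50 bases after the start were read from RefSeq (GRCm38.p6) for 50 of the 56 called genes lower in null livers and for 22 of the 29 higher ones, and searched on both strands for DR1 with at most 2 of its 12 fixed letters different. A match stood in 2 of 66 windows of the lower genes (3.03%) and in 0 of 28 windows of the higher genes, against 269 of 8412 windows (3.20%) of all genes measured. The share in the lower genes was thus near that of all genes. The 2 windows that match are shown because both belong to genes of fatty acid handling described above, with the 13 bases of the repeat in capitals, read in the direction of the gene. A match is a stretch of letters and not a bound site, and sites outside these 300 bases were not searched.
Plin2, chr4:86670264-86670292, gene on the minus strand, repeat on the plus strand of the genome: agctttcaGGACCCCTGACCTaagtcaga
Slc25a20, chr9:108662134-108662162, gene and repeat on the plus strand: ctgaatgtAGGTGAAAGGTCGgcggagcc

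Other large falls lay outside lipid metabolism. *Gna12*, an alpha subunit of heterotrimeric G proteins, read 564, 501 and 606 in wild-type livers against 137, 132 and 172 in null livers (log2 difference -1.93, SE 0.27, limma adjusted p = 0.0012). Its second, dimmer probe set read 45.4, 56.3 and 94.8 against the floor in all 3 null livers and was called as well, with a level at least 3.96-fold lower. *Nrp1*, a co-receptor for vascular endothelial growth factor and semaphorins, read 279, 515 and 569 against 175, 133 and 86.9 (log2 difference -1.78, SE 0.36, limma adjusted p = 0.027). A second probe set of *Nrp1* read 82.5, 98.1 and 129 against 54.4, 51.9 and 36.9, also without overlap, at a limma adjusted p of 0.0594. Endothelial cells express *Nrp1*, and the 14 endothelial markers measured summed to between 1279 and 1455 in wild-type and between 1131 and 1320 in null livers, with none called. Their part in the *Nrp1* difference was not tested, and the *Nrp1* call was lost without wild-type mouse 2 or 3 or without null mouse 14 or 15 (highest limma adjusted p = 0.136).

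*Lima1*, an actin-binding protein, read 101, 113 and 118 in wild-type livers against 47.4, 32.1 and 22.2 in null livers (log2 difference -1.77, SE 0.37, limma adjusted p = 0.0275). *Pcsk6*, a proprotein convertase, read 161, 137 and 149 against 41.5, 84.9 and 84.7 (log2 difference -1.15, SE 0.25, limma adjusted p = 0.0362). *Slk*, a kinase of the cytoskeleton, read 93.7, 171 and 179 against 60.9, 55.9 and 77.1 (log2 difference -1.15, SE 0.26, limma adjusted p = 0.0479). The groups of these 3 did not overlap, but the p-values sit close to the threshold. *Lima1* lost its call without wild-type mouse 1, 2 or 3 or without null mouse 14 or 15 (highest limma adjusted p = 0.116). *Pcsk6* lost it without wild-type mouse 1, 2 or 3 or without null mouse 13 (highest limma adjusted p = 0.128), and *Slk* without wild-type mouse 2 or 3 or without null mouse 13, 14 or 15 (highest limma adjusted p = 0.212).

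Smaller falls were called on 3 further lists, 1 gene on each, where 0.618% of all genes were called lower. *Gstt2*, a theta-class glutathione transferase, read 461, 485 and 514 in wild-type livers against 241, 252 and 290.0 in null livers (log2 difference -0.90, SE 0.13, limma adjusted p = 0.00274), the only gene called of 29 conjugation enzymes. *Suclg1*, the alpha subunit of succinyl-CoA ligase in the citric acid cycle, read 726, 706 and 715 against 541, 633 and 558 (log2 difference -0.31, SE 0.07, limma adjusted p = 0.0275), the only one called of 27 genes of that cycle. *H2-K1*, a class I histocompatibility gene, read 4405, 4405 and 4366 against 3703, 3727 and 4083 (log2 difference -0.20, SE 0.04, limma adjusted p = 0.0254). It was the only one called of the 36 genes on the interferon and antigen presentation list, each read through its brightest probe set. *H2-K1* differs between mouse strains and its probe set carries a suffix for shared sequence, so allele and level cannot be told apart on this array. The *Suclg1* call was lost without wild-type mouse 1, 2 or 3 or without null mouse 13 or 15 (highest limma adjusted p = 0.133), and the *H2-K1* call without wild-type mouse 1, 2 or 3 or without null mouse 13 or 14 (highest limma adjusted p = 0.106). *H2-Q10*, a secreted class I gene of the liver, was also called lower, with a log2 difference of -0.29 (limma adjusted p = 0.0263). Of the 3 probe sets of the class I gene *H2-D1*, 1 was called lower at -0.46 (limma adjusted p = 0.00506), the brightest read lower without a call and the dimmest read higher in null livers. These class I probe sets are marked as reading shared sequence. A dim probe set of *Irf7*, an interferon regulatory factor, was called higher in null livers (log2 difference 0.81, SE 0.17, limma adjusted p = 0.027). It read 21.5, 29.2 and 21.0 in wild-type livers against 36.6, 38.9 and 49.9 in null livers. *H2-D1*, *H2-Q10* and *Irf7* were chosen after their values were seen.

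Of the 85 called genes 59 stood on no pathway list. The 29 pathway lists hold only a small part of the 8251 genes measured. The share of all genes on no list was not counted, so the 59 cannot be read as many or few. The following were chosen after their values were seen. *Hsd17b11*, a dehydrogenase found on lipid droplets, read 1180.0, 1216 and 1311 in wild-type livers against 739, 849 and 705 in null livers (log2 difference -0.70, SE 0.11, limma adjusted p = 0.00316). *Nfe2l1*, a transcription factor that governs proteasome genes, read 409, 417 and 426 against 231, 177 and 199 (log2 difference -1.05, SE 0.14, limma adjusted p = 0.000922), while none of the 35 proteasome genes was called. Both were apart in every mouse.

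*Sec14l2*, a lipid-binding protein that carries tocopherol and squalene, read 479, 552 and 499 in wild-type livers against 373, 396 and 364 in null livers (log2 difference -0.43, SE 0.08, limma adjusted p = 0.0157). *Adcy6*, an adenylate cyclase, read 80.1, 83.4 and 122 against 32.0, 39.1 and 53.4 (log2 difference -1.20, SE 0.24, limma adjusted p = 0.0221). *Slc5a6*, a transporter of biotin and pantothenate, read 55.8, 63.3 and 65.5 against 15.7, 25.0 and 18.6 (log2 difference -1.66, SE 0.34, limma adjusted p = 0.027). The null livers lay near the floor for *Slc5a6*, so its fold change is limited.

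The 40 higher probe sets were spread over few lists. Of the 29 pathway lists only fatty acid uptake (*Acsl4*), ribosomal proteins (*Rps24* and *Rpl7*), complement (*C2*) and cell cycle (*Tk1*) held a gene called higher. Of all genes 0.303% were called higher. *Tk1*, the cytosolic thymidine kinase of dividing cells, had the largest difference, at 26.5, 40.6 and 18.5 in wild-type livers against 97.8, 177 and 219 in null livers (log2 difference 2.52, SE 0.45, limma adjusted p = 0.0116). A second probe set of *Tk1* read 38.4, 170.1 and 187 against 67.1, 139 and 98.7, with overlapping groups and a log2 difference of -0.13. The 2 probe sets disagree, the call was lost without wild-type mouse 3 or without null mouse 15 (highest limma adjusted p = 0.0745), and of 34 cell cycle genes measured no other was called.

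*Pdcl3*, a phosducin-like protein that helps fold cytoskeletal proteins, read 36.8, 44.7 and 34.9 in wild-type livers against 146, 136 and 60.5 in null livers (log2 difference 1.46, SE 0.28, limma adjusted p = 0.0175), with null mouse 15 well below mice 13 and 14. *Sys1*, which takes part in Golgi traffic, read 80.6, 81.8 and 71.3 against 127, 135 and 143 (log2 difference 0.80, SE 0.16, limma adjusted p = 0.0234). *Rnf149*, a ubiquitin ligase, read 207, 328 and 237 against 467, 385 and 463 (log2 difference 0.79, SE 0.16, limma adjusted p = 0.027). These 3 did not overlap between genotypes. The *Pdcl3* call was lost without wild-type mouse 1 or 3 or without null mouse 13 or 14 (highest limma adjusted p = 0.0877), the *Sys1* call whichever mouse was left out (highest limma adjusted p = 0.114), and the *Rnf149* call without wild-type mouse 1 or 3 or without null mouse 13 or 15 (highest limma adjusted p = 0.121).

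*Ddx5*, an RNA helicase, read 239.8, 227 and 259 in wild-type livers against 367, 354 and 503 in null livers (log2 difference 0.74, SE 0.12, limma adjusted p = 0.00524). *Hnrnpa2b1*, a splicing factor, read 240.3, 242 and 221 against 421, 337 and 379.9 (log2 difference 0.69, SE 0.16, limma adjusted p = 0.0486). *Naca*, which meets new chains at the ribosome, read 412, 376 and 452 against 649, 588 and 570.4 (log2 difference 0.55, SE 0.10, limma adjusted p = 0.0116). Of 29 ribosomal protein genes measured 2 were called higher, against 0.303% of all genes, and 12 lay higher and 0 lower without overlap, against 7.53% of all genes each way. *Rps24* read 2381, 2435 and 2298 against 3194, 3039 and 3404 (log2 difference 0.44, SE 0.09, limma adjusted p = 0.0216). *Rpl7* read 1117, 1023 and 1169 against 1536, 1434 and 1425 (log2 difference 0.41, SE 0.08, limma adjusted p = 0.027). Both ribosomal genes have processed copies in the genome and probe sets marked as not unique, and both calls were lost when the arrays were only brought to the same median. With 1 mouse left out, the *Rps24* call was lost without wild-type mouse 1, 2 or 3 or without null mouse 13 or 15 (highest limma adjusted p = 0.0935), the *Rpl7* call whichever mouse was left out (highest limma adjusted p = 0.123), the *Hnrnpa2b1* call whichever mouse was left out (highest limma adjusted p = 0.186) and the *Naca* call without wild-type mouse 2 or without null mouse 13 (highest limma adjusted p = 0.0652).

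Of the other named rises, *Cnn3*, a calponin that binds actin, read 396, 409.5 and 374 in wild-type livers against 632, 569 and 646 in null livers (log2 difference 0.65, SE 0.07, limma adjusted p = 0.000254). The *Cnn3* probe set carries a suffix for shared sequence. *Csrp2*, a LIM domain protein linked to stellate cells and smooth muscle, read 1536, 1281 and 1351 against 2026, 1889 and 1772 (log2 difference 0.45, SE 0.07, limma adjusted p = 0.00457). *C2*, the serine protease of the classical complement pathway, read 478, 398 and 368 against 534, 549 and 509 (log2 difference 0.36, SE 0.08, limma adjusted p = 0.0476) and was the only one called of 31 complement and coagulation genes. Its call was lost without wild-type mouse 2 or 3 or without null mouse 13, 14 or 15 (highest limma adjusted p = 0.212). Of the stellate and fibroblast markers 13 were measured and none was called, and they summed to between 1649 and 2028 in wild-type and between 1597 and 1901 in null livers. Their part in the *Csrp2* difference was not tested. *Txnl1*, a thioredoxin-like protein, *Ghrhr*, the receptor for growth hormone releasing hormone, and *Ubfd1*, a protein with a ubiquitin domain, complete the set, with log2 differences of 0.59, 0.57 and 0.55 (limma adjusted p = 0.0438, 0.027 and 0.0319). With single mice left out their adjusted p reached 0.159, 0.114 and 0.127.

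**Figure D2:**
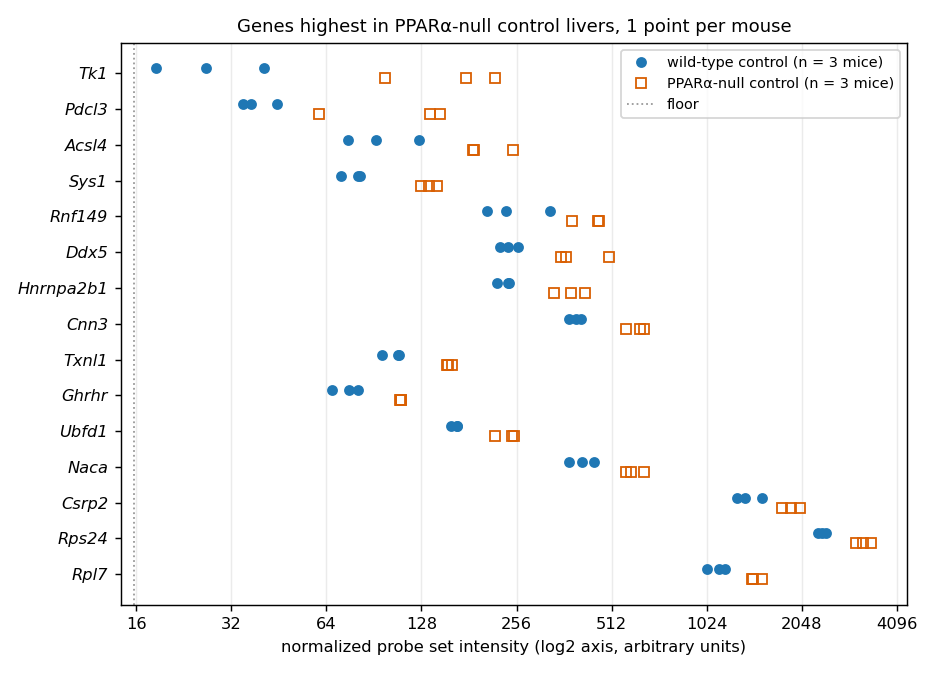
Normalized intensity of the 15 probe sets of largest rise in PPARα-null control livers, by the naming rule, on a log2 axis, with 1 filled circle per wild-type mouse and 1 open square per null mouse (3 mice each); the dotted line is the floor of 15.7. The genotypes do not overlap, but from *Sys1* downward the differences of the means are under 1 log2 unit.

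Some higher genes were chosen after their values were seen. *Acbd6*, an acyl-CoA binding protein, was at the floor in all wild-type livers and read 56.1, 53.4 and 55.3 in null livers, at least 3.49-fold higher (limma adjusted p = 0.0134). *Ikzf1*, a transcription factor of lymphoid cells, read 15.7, 17.4 and 15.7 in wild-type livers against 46.0, 65.8 and 51.3 in null livers (log2 difference 1.72, SE 0.30, limma adjusted p = 0.00907). *Blnk*, an adaptor of the B cell receptor, read 19.4, 15.7 and 15.7 against 68.8, 31.5 and 58.8 (log2 difference 1.58, SE 0.31, limma adjusted p = 0.0205). The 18 markers of T, B and NK cells measured, of which none was called and 7 were at the floor, summed to between 967 and 1346 in wild-type and between 1156 and 1519 in null livers. Their part in the *Ikzf1* and *Blnk* differences was not tested.

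The calls were also made with 1 of the 6 mice left out at a time. Of the 41 named probe sets called, 18 stayed called whichever mouse was left out, 15 of them lower and 3 higher. The 15 lower were *Cyp4a10*, *Vnn1*, *Gna12*, *Eci1*, *Retsat*, *Eci2*, *Cpt2*, *Slc25a20*, *Ech1*, *Etfdh*, *Hsd17b4*, *Acads*, *Plin2*, *Gstt2* and the brightest probe set of *Acaa1b*. The 3 higher were *Ddx5*, *Cnn3* and *Csrp2*. These 3 lost their calls without scaling and with only the 6 control arrays in the fit. *Cnn3* and *Csrp2* also lost them when the arrays were only brought to the same median. Of the 18, only *Cpt2*, *Cyp4a10* and *Eci2* stayed called under every alternative of the processing. The naming rule takes up to 6 called genes from each list, so it partly fixes which genes could stand here, and the other called probe sets were not followed in this way.

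Across probe sets, 14 of the called genes named here had 17 further probe sets. Of these 4 lay at the floor on all 6 arrays, 8 pointed the same way, 1 of them called, and 5 pointed the opposite way without a call. 

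Other branches of lipid metabolism showed no call. Among 19 genes of cholesterol synthesis and uptake none was called, although 15 of the 18 above the floor read lower in null livers and the median log2 difference was -0.29. *Fdps*, which makes farnesyl diphosphate, read 542, 696 and 387 in wild-type livers against 232, 182 and 219.9 in null livers, without overlap (log2 difference -1.32, SE 0.48, limma adjusted p = 0.272). *Idi1*, one step earlier, read 172, 270.4 and 111 against 66.2, 70.7 and 126 with overlap (log2 difference -1.04, SE 0.63, limma adjusted p = 0.66). The wild-type mice alone spanned 387 to 696 for *Fdps*, so the spread within the group was large.

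Fatty acid synthesis and desaturation gave no call among 18 genes (median log2 difference -0.08), with *Elovl5*, a fatty acid elongase, at 967, 1228 and 1089 against 956, 657 and 595 (log2 difference -0.60, SE 0.18, limma adjusted p = 0.158). Bile acid synthesis and transport gave none among 16. *Cyp7a1*, the rate-limiting enzyme of bile acid synthesis, read 94.7, 42.6 and 120.5 in wild-type livers against 42.6, 21.2 and 15.7 in null livers (log2 difference -1.70, SE 0.53, limma adjusted p = 0.169). Wild-type mouse 2 and null mouse 13 met for *Cyp7a1*, and null mouse 15 lay at the floor. *Angptl4*, an inhibitor of lipoprotein lipase and a known PPAR target, is on the list of 23 apolipoprotein and lipoprotein genes, none called, and read 353, 424 and 532 against 190.0, 191 and 245 without overlap (log2 difference -1.05, SE 0.38, limma adjusted p = 0.281).

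Among the lists outside lipid metabolism, amino acid breakdown and the urea cycle gave no call in 49 genes, but 14 members lay higher in every null mouse than in any wild-type mouse and 1 lay lower, against 7.53% of all genes each way. *Csad*, an enzyme of taurine synthesis, had the largest positive difference on the list, at 224, 261 and 278 against 895, 488 and 489 (log2 difference 1.24, SE 0.36, limma adjusted p = 0.138). *Got2*, the mitochondrial aspartate aminotransferase, lay on the other side at 88.8, 292 and 329 against 32.1, 123 and 105 (log2 difference -1.45, SE 0.65, limma adjusted p = 0.46). Oxidative phosphorylation likewise gave no call in 62 genes, with 15 members higher and 4 lower without overlap and a median log2 difference of 0.09. *Ndufa10*, a subunit of complex I, read 21.1, 32.9 and 15.7 against 119, 232 and 59.6 (log2 difference 2.41, SE 0.57, limma adjusted p = 0.0616). Apart from such single genes the differences on these lists were small.

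Of 42 cytosolic chaperone genes none was called (median log2 difference 0.20), nor of 32 in mitochondria and the endoplasmic reticulum (0.05). *Hspd1*, the mitochondrial chaperonin, read 1600.3, 1667 and 1526 in wild-type livers against 1864, 1696 and 1754 in null livers (log2 difference 0.15, SE 0.10, limma adjusted p = 0.786). *Hspe1*, its partner, read 812, 851 and 760.2 against 1251, 947 and 1002 (log2 difference 0.39, SE 0.18, limma adjusted p = 0.466). Neither pair of groups overlapped, yet neither gap passed the test. *Hsp90aa1*, the inducible cytosolic chaperone, read 632, 616 and 491 against 1221, 486 and 403, with null mouse 13 far above the rest (log2 difference 0.11, SE 0.36, limma adjusted p = 1). *Hsph1*, another cytosolic chaperone, was also highest in that mouse, at 251, 193 and 157 against 399, 147 and 188 (log2 difference 0.18, SE 0.64, limma adjusted p = 1).

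Further lists without a call were the 26 xenobiotic P450 genes (median log2 difference -0.06), 29 growth hormone and sex-dependent genes (-0.06), 26 antioxidant genes (-0.03), 35 genes of glucose metabolism (0.02), 35 proteasome genes (0.08), 29 acute phase genes (-0.08), 20 clock genes (-0.09), 30 nuclear receptors and liver transcription factors (-0.07), 34 immediate-early, p53 and glucocorticoid genes (-0.03) and 33 genes of matrix and adhesion (0.06). *Igfbp1*, a binding protein for insulin-like growth factors that is raised by fasting, had one of the wider gaps, at 427, 239 and 392 against 657, 983 and 1112 (log2 difference 1.39, SE 0.64, limma adjusted p = 0.475). *Mt1*, a metal-binding protein, read 4115, 2970.2 and 4636 against 2312, 1749.6 and 2109.8 (log2 difference -0.91, SE 0.41, limma adjusted p = 0.455). *Socs2*, an inhibitor of growth hormone signalling, read 161, 142 and 108 against 59.7, 84.1 and 23.9 (log2 difference -1.45, SE 0.64, limma adjusted p = 0.435), and *Saa2*, an acute phase protein, 2258, 578 and 2021 against 551, 259.6 and 557 (log2 difference -1.68, SE 1.16, limma adjusted p = 0.774). In none of these 4 genes did the groups overlap, but the standard errors, pooled over the 8 groups, were wide. In all, 19 of the 29 pathway lists and all 11 lists of cell type markers held no called gene.

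**Figure D3:**
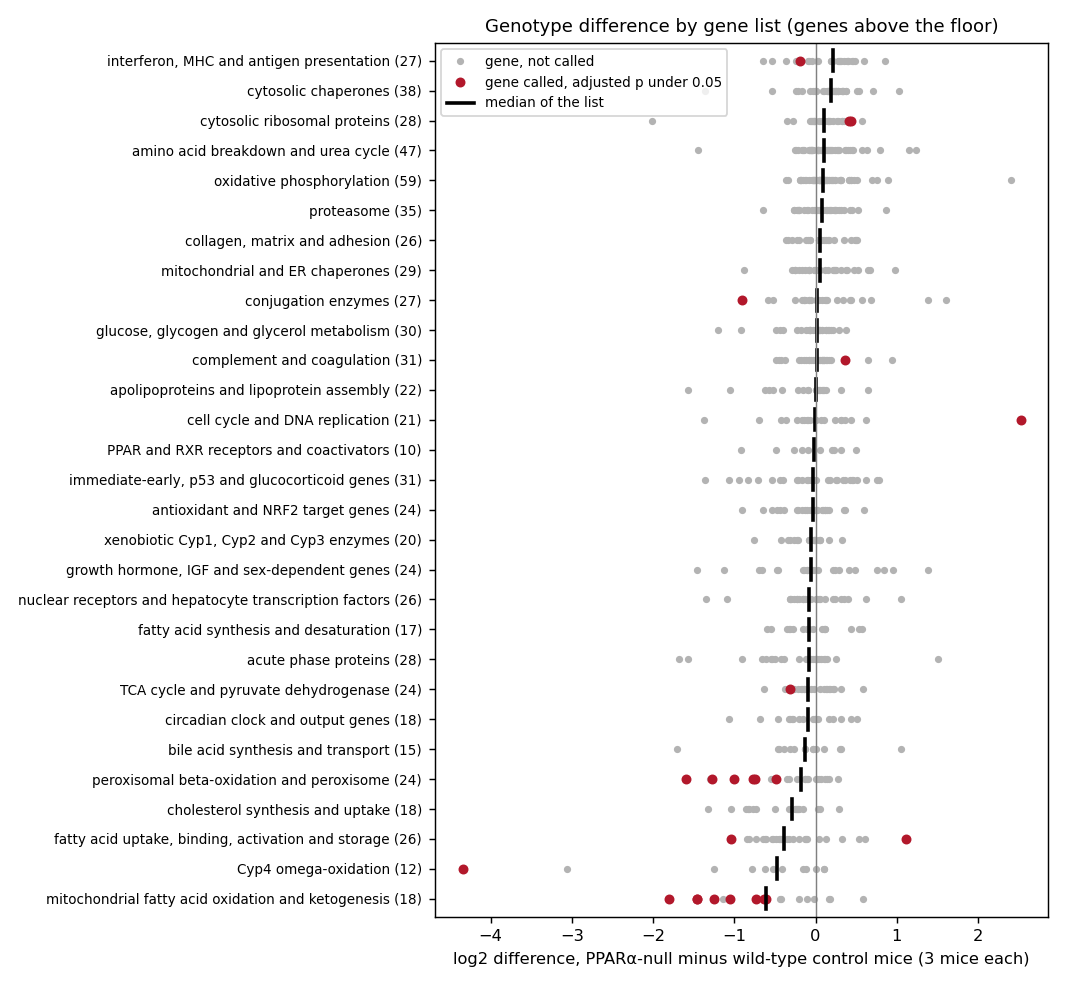
Log2 difference, null minus wild-type control livers (3 mice each), of every gene above the floor on the 29 pathway lists, with the number of such genes in parentheses; grey points were not called, red points were called, and the black bar is the list median. Mitochondrial fatty acid oxidation, with 8 called genes and a median of -0.61, lies lowest, followed by omega-oxidation at -0.47 and fatty acid uptake at -0.39.

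Among cell type markers, those of cholangiocytes summed higher in every null liver (1009 to 1063) than in any wild-type liver (778 to 833). None of the 8 measured was called. The gap lay in *Krt8* and *Krt18*, keratins that hepatocytes also make. *Krt18* read 314, 374 and 329 in wild-type livers against 478, 503 and 536 in null livers (log2 difference 0.58, SE 0.28, limma adjusted p = 0.506). The defining duct markers *Krt19*, *Krt7*, *Epcam* and *Muc1* were at the floor on all 6 arrays. *Atp2a1*, a calcium pump of fast muscle, read 103, 71.5 and 61.0 in wild-type livers against 15.7, 16.4 and 15.7 in null livers (log2 difference -2.26, SE 0.54, limma adjusted p = 0.0598). On this probe set it was above the floor in all 3 wild-type livers. A second, dimmer probe set read 31.0, 15.7 and 15.7 against the floor in all null livers, so it was above the floor in mouse 1 alone. Of the 13 muscle markers above the floor 10 read lower and 3 higher in null livers, with none called and a median log2 difference of -0.56. Without wild-type mouse 1, 8 mitochondrial fatty acid oxidation genes and 5 peroxisomal genes were called lower, and 84 probe sets in all.

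Because the background was mixed, genes close to *Ppara* were looked at as a description. Of the 50 protein-coding genes on each side in the RefSeq order 37 in all were measured and 30 were above the floor. None was called, 8 of the 37 did not overlap between the genotypes, against 15.1% of all genes, and the log2 differences ran from -1.08 to 1.17 with a median of -0.07. Whether other loci differ by strain of origin was not tested.

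The genotype difference of the called probe sets was then read in the treated mice. No treated mouse enters the control difference itself, but all 24 arrays share the normalization and the estimate of the spread, so the treated mice took part in deciding which probe sets were called. With only the 6 control arrays in the fit 24 probe sets were called, 10 of them among the 105. After HS all 65 lower probe sets lay lower in null livers again and 56 were called so, where 7.69% of all probe sets were called lower. After WY 62 lay lower and 52 were called (6.65% of all), and after WY+HS 58 and 44 (5.51% of all). The higher side recurred less evenly: 37 of 40 lay higher after HS with 28 called (7.12% of all), 28 after WY with 18 called (6.38%) and 26 after WY+HS with 15 called (6.23%). Of all probe sets 14.8%, 13% and 11.7% were called in either direction after HS, WY and WY+HS. Some were called the opposite way: 1 of the lower and 5 of the higher probe sets after WY, 3 and 4 after WY+HS, and 0 of either after HS. In all 4 comparisons 49 probe sets were called in the same direction, 39 lower and 10 higher.

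The size of the difference was near that in control mice after HS and larger after WY for most lower genes. For the 65 lower probe sets the median log2 difference was -1.07 after HS, -1.58 after WY and -1.08 after WY+HS. On the mitochondrial fatty acid oxidation list the median of -0.61 in control mice compared with -0.76 after HS, -2.07 after WY and -1.96 after WY+HS, with 12, 17 and 16 of 19 genes called lower. The test of the difference between WY and control mice passed for 31 of the 65 lower and 13 of the 40 higher probe sets, where 5.13% of all probe sets passed, that between WY+HS and control for 32 and 16 (5.34% of all), and that between HS and control for 5 and 3 (1.62% of all). These tests share the control mice in which the probe sets were called, so a value that was extreme there enters both.

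**Figure D4:**
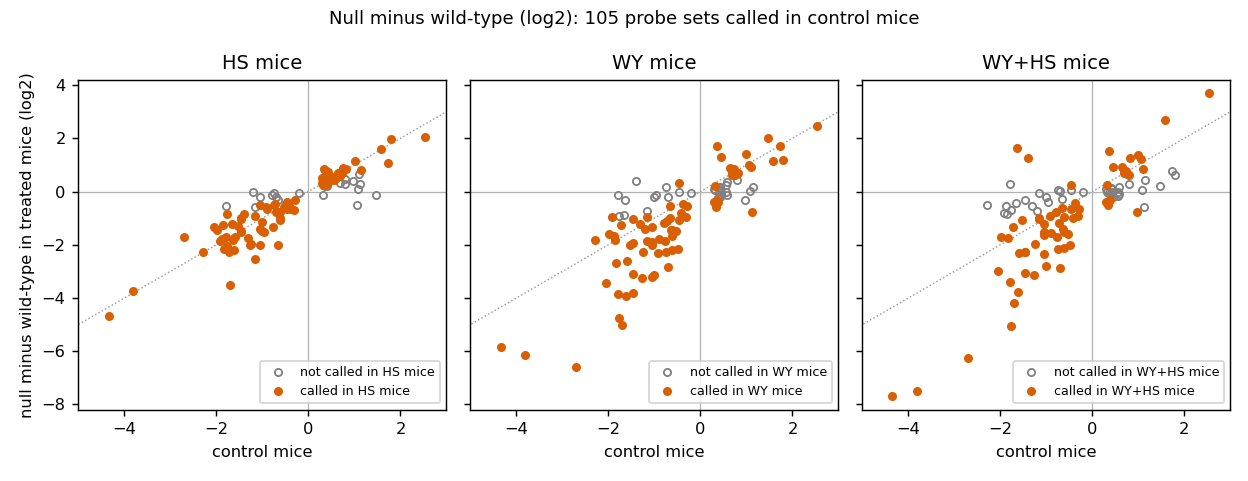
Log2 difference, null minus wild-type, of the 105 probe sets called in control mice (horizontal axis) against the same difference in HS, WY and WY+HS mice (vertical axis), with 3 mice per genotype and treatment; filled points were called in the treated mice and the dotted line marks equal differences. After HS the points follow the line, with all 65 lower probe sets below 0, while after WY many lower probe sets lie well under it.

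The levels behind these differences were followed in the 8 groups (mean ± SD, n = 3 mice each). *Cpt2* averaged 1191 ± 73.3 in wild-type control, 966 ± 52.0 in HS, 1883 ± 113 in WY and 1873 ± 173 in WY+HS livers. In null livers it averaged 434 ± 31.3, 339 ± 70.8, 493 ± 48.8 and 383 ± 13.5 in the same order. The null level thus stayed below the untreated wild-type level under every treatment. *Eci1* averaged 599 ± 35.1 in untreated wild-type livers and 2360.1 ± 231 after WY, against 175 ± 38.1 and 164 ± 16.2 in null livers. Its rise with WY passed the test in wild-type livers (log2 change 1.98, limma adjusted p = 1.73e-07) and the change in null livers was -0.07 (limma adjusted p = 1).

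*Cyp4a10* averaged 395 ± 68.7 in untreated wild-type livers and 4033 ± 525 after WY. In null livers it averaged 20.1 ± 7.58 without and 108 ± 94.5 with WY, where the mice ran from the floor to 205. *Plin2* averaged 2084 ± 166 and 4391 ± 42.2 in wild-type control and WY livers, against 1027 ± 233 and 1106 ± 137 in null livers. Of the 105 probe sets 0 were called for WY in null livers, where 1 of 12422 (0.00805%) was called, while 10.8% of all probe sets were called for WY in wild-type livers. The comparisons with WY share the control mice.

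Among the genes described, *Acsl4* changed sides after WY. It was higher in null than in wild-type control livers but lay lower after WY (log2 difference -0.79, limma adjusted p = 0.0455), where wild-type livers averaged 97.6 ± 25.9 without and 254 ± 37.4 with WY while null livers averaged 208 ± 35.7 and 149 ± 29.2. The *H2-D1* probe set called lower in null control livers was called higher after WY+HS (log2 difference 0.25, limma adjusted p = 0.0414). *C2* kept its direction after WY with a wider gap, at 415 ± 56.6 and 171 ± 2.45 in wild-type against 531 ± 19.9 and 556 ± 39.9 in null livers. *Nrp1* was not called after any treatment. Its log2 difference was -0.56 after HS (limma adjusted p = 0.406), and -0.13 and 0.29 after WY and WY+HS (limma adjusted p = 1 and 0.881). *Acaa1b* did not recur after HS on its brightest probe set (log2 difference -0.05, limma adjusted p = 1) but did on its dimmer one (-3.52, limma adjusted p = 8.13e-06), so the probe sets disagree there.

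**Figure D5:**
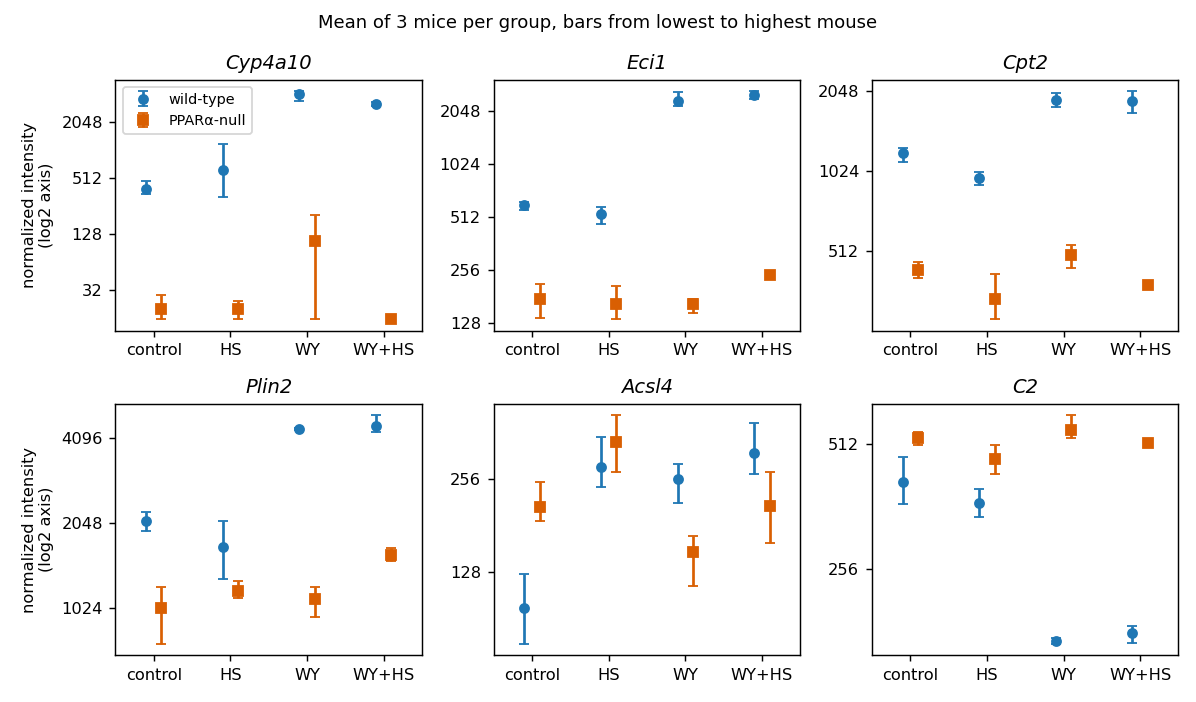
Normalized intensity of 6 genes in the 8 groups on log2 axes, with the mean of 3 mice as the point and bars from the lowest to the highest mouse; circles are wild-type and squares PPARα-null. *Cyp4a10*, *Eci1*, *Cpt2* and *Plin2* lie lower in null livers in every group, *C2* lies higher, and *Acsl4* lies higher in null livers under control diet and lower after WY.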

How the data were processed

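Liver RNA of 24 mice, 1 array per mouse, was hybridised to Affymetrix U74Av2 arrays. The deposited values are linear intensities with the background subtracted, made by the authors from the scans with Affymetrix software and Rosetta Resolver, and 24.1% were at or below 0. The sources used here do not name the summary method or the scaling. Gene names came from the platform annotation. Looking up their gene IDs in RefSeq changed no symbol.

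Intensities of all 24 arrays were quantile normalized, raised to a floor of 15.7 (the size of the 10th percentile) and taken to log2. At the floor lay 42.9% of values, and 3938 probe sets were there on all 6 control arrays. A model with 8 group means was fitted with limma 3.58.1 in R 4.3.3 (16 residual degrees of freedom), and p-values were adjusted by the Benjamini-Hochberg method over 12422 probe sets, with 0.05 as threshold. The spread is pooled over the 8 groups, and each array is a separate mouse. The number of arrays limits the precision. A fold change against a group at the floor is a lower bound. Further tables and figures were made with Python 3.11.15, pandas 2.3.3 and matplotlib 3.10.9. The procedure was tested on simulated data.

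Named were *Ppara*, the 15 largest rises and falls among called probe sets with 1 gene symbol, a mean of at least 100 in the higher group and no overlap, up to 6 called genes per list or, where none was called, the 2 of largest difference, and 4 chaperones. Not all of those 2 are described. The comparison, the 40 gene lists and the alternatives were chosen with earlier results of these data known. The brightest probe set stood for a gene in the lists, which were described by counts and medians with no set test. The alternatives changed the scaling, floor, transformation, array weights, variance moderation, filters, arrays in the fit, test, threshold and probe sets per gene, and left out each mouse.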

Additional observations from a re-analysis of the deposited data

Results flagged for a closer look

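The genotype difference (null minus wild-type, log2) of the 41 named probe sets called in control mice was compared between treated and control mice. The interaction term of the limma fit was used. At an adjusted p under 0.05, 3 differences passed after HS, 21 after WY and 23 after WY+HS. Of all 12422 probe sets 1.62%, 5.13% and 5.34% passed in the same order. The named differences after HS and WY are given here. All share the control mice in which the genes were called, so a value that was extreme there enters both sides.

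After WY the difference was lower than in control mice by these amounts (treated minus control, log2): *Vnn1* -3.87, *Acaa1b* -3.32 on its dimmer and -1.52 on its brightest probe set, *Retsat* -2.30, *Acot8* -2.15, *Acadl* -2.14, *Eci1* -2.05, *Ech1* -1.97, *Acsl4* -1.90, *Abcd3* -1.66, *Slc25a20* -1.63, *Hsd17b4* -1.07, *Etfdh* -1.01, *Eci2* -1.01, *Plin2* -0.95, *Gstt2* -0.87, *Txnl1* -0.72, *Suclg1* -0.66 and *Rps24* -0.56. For the genes already lower in null livers this is a wider gap, while *Acsl4* was called higher in null control livers and lower after WY. The genotype difference after WY was -0.13 for *Txnl1* (limma adjusted p = 0.792) and -0.12 for *Rps24* (limma adjusted p = 0.52), neither of them called. The difference was higher than in control mice for *C2*, by 1.34, and for *Csrp2*, by 0.84. Among these genes the largest shift, that of *Vnn1*, concerned an enzyme near the floor in null control livers.

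After HS 3 such differences passed. The gap of *Hsd17b4* shifted by -0.57 and that of *Suclg1* by -0.39, both wider. The gap of the brightest probe set of *Acaa1b* shifted by 0.69. After HS this probe set averaged 1911 in wild-type and 1836 in null livers, a difference that was not called. The dimmer *Acaa1b* probe set did not follow it.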

How the results depend on the processing

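The direction of the 41 named calls was kept under every alternative, but the number of calls was not. Counted over these genes and all alternatives, 569 repeats stayed called and 292 did not, and only *Cpt2*, *Cyp4a10* and *Eci2* stayed called under every alternative. Against 105 calls (40 higher, 65 lower), an equal median for the arrays gave 65 (12 higher), no scaling 17 (2 higher, 15 lower), array weights 183 (75 higher, 108 lower), only the 6 control arrays 24 (6 higher, 18 lower), only the 12 arrays of mice on the control diet 45 (13 higher, 32 lower) and an adjusted p under 0.01 39 (10 higher, 29 lower). The higher calls also moved to 24 with asinh and no floor, 25 with trend and robust moderation, 65 with only probe sets above the 30th percentile, 21 at a fold of at least 1.5 and 22 with 1 value per gene. The methods' test (an F test, then Scheffe) gave 111. With single mice left out the count ran from 51 to 87 (11 to 34 higher, 34 to 59 lower), and it was 53 without wild-type mouse 2, 51 without wild-type mouse 3 and 58 without null mouse 13; the cause was not tested. Mitochondrial fatty acid oxidation kept 7 to 8 lower calls in these fits, but 4 without scaling and 2 with only the 6 control arrays. Peroxisomal genes kept 4 to 5, but 2 and 1. With only the 12 arrays of mice on the control diet the peroxisomal calls of *Ech1*, *Abcd3* and *Acot8* were lost.

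Genes that were not called changed sign in 13 cases. Without scaling the log2 difference of *Hsp90aa1* was -0.086 and that of *Hspd1* -0.081. At the 5th percentile floor *Psmb9* was at 0.031 and *Arntl* at 0.012, and with asinh *Elovl1* was at -0.95. With single mice left out *Hsp90aa1* ran from -0.38 (without null mouse 13) to 0.42 and was -0.0071 without wild-type mouse 3, *Hsph1* from -0.24 (null mouse 13) to 0.48, *Cyp2c39* from -1.24 to 0.083 (null mouse 13), *Hnf4a* from -0.64 to 0.13 (null mouse 15; 0.11 without null mouse 13), *Elovl1* from -0.33 (null mouse 15) to 1.02 and *Rgs5* from -0.69 to 0.27 (wild-type mouse 1). In 13 other cases such genes became called: *Ndufa10* in 5 and *Ppara* and *Atp2a1* in 3 each (lowest limma adjusted p 0.0264, 0.0177 and 0.0256), among them array weights and both filters on dim probe sets for all 3, *Tie1* at the 5th percentile floor and *Cox5a* without null mouse 15. No paired analysis was possible because no label links a null mouse to a wild-type mouse. Dim probe sets are limited by the floor.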
